A study of Rattus norvegicus with 6 samples.

Results

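Voltage-gated and potassium channel genes were examined in rat neuronal progenitor cells given corticosterone or its solvent. The members were all probe sets whose single gene symbol in the platform annotation began with Kcn, with Scn and a digit, or with Cacn, and Kcnj10 was left out. This gave 177 of 31099 probe sets, for 110 of the 14217 genes that had a probe set with 1 symbol, and 42 of the 110 genes had several probe sets. The cells were prepared from the cerebral cortex of rat embryos at E15.5 and grown on fibronectin with 20 ng/ml bFGF, a mitogen that keeps precursors dividing. The vehicle group (labelled control, n = 3) was given DMSO and the corticosterone group (n = 3) was given 1 µM of the hormone, which is the chief adrenal glucocorticoid in rats, both for 48 h. RNA of each sample was hybridised to 1 Affymetrix array. Each vehicle sample was coupled with a corticosterone sample, which made 3 couples. The comparison asked which channel transcripts were above background in these cells and which of them differed with the hormone. Strain, sex and the number of embryos behind each culture were not stated in the labels, nor whether the couples were separate cultures, so p-values measure only the spread between these samples, which may be technical.

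Potassium channels let potassium leave the cell and set the resting potential, and their families differ in what opens them: voltage, calcium, sodium, or nothing beyond the leak itself. Voltage-gated sodium channels carry the rising phase of the action potential, and voltage-gated calcium channels turn depolarisation into a calcium signal. Many pore-forming subunits work with auxiliary subunits that change their gating or carry them to the membrane. Dividing cortical precursors rest at a negative potential that leak and inwardly rectifying potassium channels hold, while most sodium channels and many voltage-gated potassium channels are features of differentiated neurons.

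Values are MAS5 signals in arbitrary units, scaled by the authors to one mean per array. Signals of different probe sets are not comparable as transcript levels, so no gene's level is set against another's. A summed signal of a marker list adds the same probe sets on each array, is set mostly by the brightest of them, and serves only to compare arrays. The background signal was 22.8, below which 95% of the signals of 27 bacterial control probe sets fell, none of which has a target in the sample. The median signal of all probe sets lay between 108 and 122 on the vehicle arrays and between 124 and 134 on the corticosterone arrays, and 75.3% to 78.1% and 78.3% to 80.6% of probe sets were above background. All 9 genes of the progenitor marker list, among them Sox2, Vim, Fabp7 and Pax6, were above background on all 6 arrays, and 2 of the 9 rose, Slc1a3 by 0.49 (limma adjusted p = 5.4e-04) and Nes by 0.26 (0.019), and 0 fell. For each list here, the background is the share over all tested genes, 11.7% higher and 7.77% lower. Of the 4 tested astrocyte genes 3 rose, S100b, Aldoc and Gja1, and 0 fell (summed signal 5870 to 8690 on vehicle arrays, 12402 to 17632 on corticosterone arrays). Gfap did not pass (0.58, limma adjusted p = 0.13), and Aqp4, Aldh1l1 and Slc1a2 were below the filter. Of the 10 tested neuronal genes 0 rose and 1, Tubb3, fell (15309 to 16691 and 13216 to 16085). Of the 4 tested oligodendrocyte precursor genes Pdgfra fell, from 2134 ± 1382 to 616 ± 393 (19944 to 24482 and 16620 to 23032 for the list). Of the 4 tested pericyte and smooth muscle genes 1 rose, Acta2, from 203 ± 37.6 to 448 ± 111 (limma adjusted p = 0.0027, 454 to 595 and 762 to 1236 for the list). Tagln of that list was below the filter and under background on all 3 vehicle arrays, at 2.33, 5.43 and 6.54, and read 104, 298 and 61.9 with corticosterone (limma adjusted p = 0.011 without the filter), while the pericyte markers Pdgfrb and Rgs5 had means of 23.7 and 24.5 with vehicle and 18.1 and 25.6 with corticosterone. Of the 3 tested meningeal and fibroblast genes Col1a2 rose (0.99, limma adjusted p = 0.013), and it was brightest on both arrays of couple 2, at 6.42, 401 and 32.1 with vehicle and 87.0, 691 and 57.4 with corticosterone. The list summed to 90.4 to 1399.9 and 153 to 2129.8. Summed signals were 133 to 145 and 186 to 205 for microglia, with 1 gene tested that did not pass, and 50.1 to 111 and 94.0 to 156 for endothelium, with 0 tested. The part of these lists in the results below was not tested. In a bulk sample, fewer cells that express a gene and less RNA per cell cannot be told apart.

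Fewer channel probe sets than other probe sets read above background. On all 6 arrays it was 68 of 177 (38.4%), against 66.6% of all probe sets on the arrays. A further 33 channel probe sets were at or under background on all 6 arrays. At the level of genes, 50 of 110 had at least 1 probe set above background on all 6 arrays, and 16 had no probe set above it on any array. These 16 were Cacna1f, Cacna1g, Cacna1s, Cacnb4, Cacng1, Cacng3, Kcna4, Kcnb2, Kcne1, Kcnh6, Kcnj1, Kcnj12, Kcnk4, Kcns2, Scn4a and Scn11a, among them the skeletal muscle sodium and calcium pores Scn4a and Cacna1s and the retinal calcium pore Cacna1f. A low signal on such arrays can also come from a weak probe set, so it does not show that a transcript is absent.

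**Figure D1:**
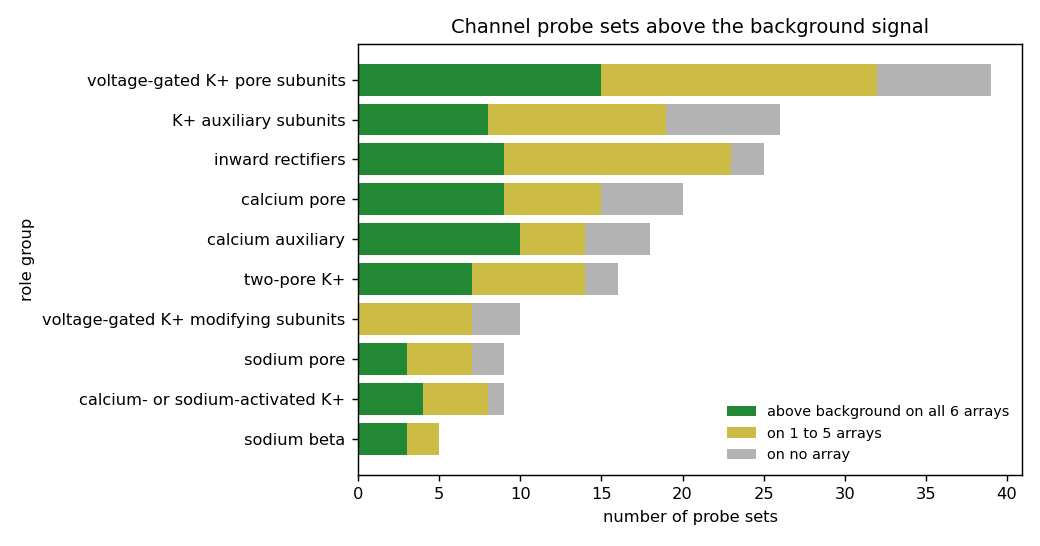
Number of channel probe sets (horizontal axis) in each role group (vertical axis), split into those above the background signal of 22.8 on all 6 arrays, on 1 to 5 arrays and on no array. Of the 39 probe sets for voltage-gated potassium pores 15 were above on all 6 arrays, and of the 10 for modifying subunits 0 were.

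Of the 177 probe sets 44 passed the filter on low signals (24.9%), beside 18625 of 31042 over the whole array, and were tested, which covered 35 of the 110 genes. Corticosterone changed 9 of the 44 at a limma adjusted p under 0.05, 5 higher and 4 lower, against a background of 15.9% of 18625 probe sets changed, 9.4% higher and 6.45% lower. The shares among the channels were 20.5%, 11.4% and 9.09%, near that background. The 9 probe sets stood for 6 genes, Kcnt1, Kcnk10 and Cacna2d1 higher and Kcnd2, Kcnip3 and Kcnj14 lower, which is 6 of 35 tested genes. The probe set that stood for Kcnt1, 1395102_at, was its brightest only because the corticosterone arrays counted in the choice. On the vehicle arrays 1379147_at, which did not pass, had the higher mean, 93.4 against 79.3. Over all tested genes 19.5% changed, 11.7% higher and 7.77% lower. Without the couple in the model 2 of the 44 passed, both Kcnt1, against 2.24% of all tested probe sets. At an unadjusted p under 0.05 there were 12 of the 44, against 30.1%. The median log2 fold change of the 44 was 0.09, beside −0.004 over all tested probe sets, and centring the arrays on their medians made these −0.01 and −0.11. Of the 44, 5 had a vehicle mean under the filter and were tested through their corticosterone signals. The vehicle and corticosterone arrays did not overlap for 7 of the 44, against 22.6% of all tested probe sets. Over all probe sets on the array 11.5% lay higher and 7.25% lower without overlap. Of the 44, 12 were higher and 8 lower in all 3 couples, against 25.2% and 25.3%. The largest adjusted p among the members that passed was 0.046 and the smallest among those that did not was 0.077.

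**Figure D2:**
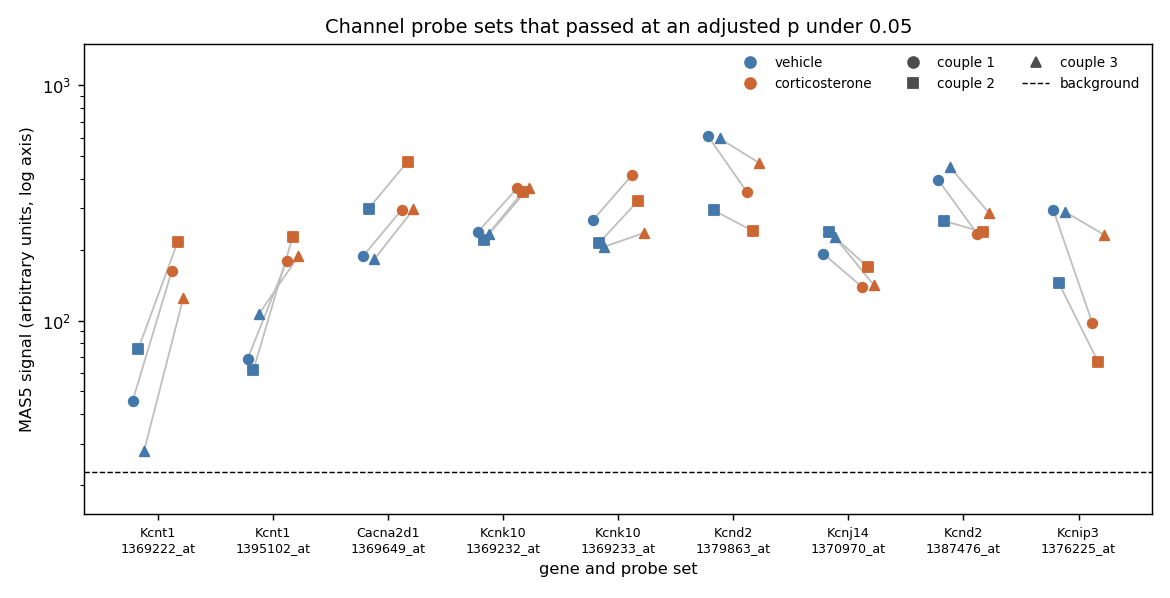
MAS5 signal (log axis) on each array for the 9 channel probe sets that passed, with vehicle in blue, corticosterone in orange, a marker shape per couple and a grey line joining the samples of a couple. The dashed line is the background of 22.8, and each line runs in 1 direction within a probe set: up for Kcnt1, Cacna2d1 and Kcnk10, down for Kcnd2, Kcnj14 and Kcnip3.

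Among channels opened by intracellular calcium or sodium, Kcnt1 rose. Kcnt1 encodes a large-conductance potassium channel gated by sodium, known as Slack. Its probe set 1369222_at read 45.6, 76.1 and 28.02 with vehicle in couples 1, 2 and 3, and 163, 215 and 125 with corticosterone in the same couples. Every corticosterone array was above every vehicle array. The signal went from 49.9 ± 24.3 to 168 ± 45.3 (SD, n = 3 per group, here and for all means below). The log2 fold change was 1.34 ± 0.18 (± SE throughout, limma adjusted p = 5.5e-04) on the log2(signal + pseudocount) scale, which understates changes of low signals. The vehicle mean was under the filter of 63.6, so this probe set was among the 44 only through its corticosterone signals. In the fit without the filter it passed too (limma adjusted p = 0.0083). A separate Kcnt1 probe set, 1395102_at, read 68.9, 61.9 and 107 with vehicle and 180.0, 227 and 188 with corticosterone, again with no overlap (log2 fold change 1.09 ± 0.19; limma adjusted p = 0.0026). A remaining probe set of the gene, 1379147_at, did not follow them: it read 87.1, 101 and 91.9 with vehicle and 72.8, 92.0 and 106 with corticosterone (−0.05, 95% confidence interval −0.45 to 0.35, limma adjusted p = 0.90). Both rising probe sets passed under every alternative in which they were tested, including the fit without the couple (adjusted p = 0.042 and 0.029) and without any 1 couple (0.0018 to 0.047). Under the stricter filter on low signals neither was tested.

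RefSeq promoter windows (build GRCr8) were searched for AGAACA on both strands of the 250 bases before each transcript start. AGAACA is only a part of the glucocorticoid receptor motif, and below, the motif means these 6 bases alone. The full palindrome, with 3 bases between its arms, was found in 4 of 33469 windows (0.012%). AGAACA was found in 17.5% of 33469 windows of that length, and in 12 of the 86 windows of channel genes (14.0%). Of the 6 genes that changed, 5 had a window, and 1 of these, Kcnt1, held AGAACA. By window this was 1 of 8 (12.5%), and by gene the motif was in 10 of the 77 channel genes with a window (13%). The stretch is shown because it holds that match, and it does not hold the full palindrome. It lies at chr3:29081107-29081136 on the plus strand, the motif begins 220 bases before a Kcnt1 transcript start, and the capitals mark it as read from the opposite strand, as TGTTCT. That window lies inside the span of Kcnt1 in RefSeq, not before its outer end, and the other Kcnt1 window did not hold the motif.
Kcnt1 stretch with the motif: tcaagaaaacgaTGTTCTggagttagccct
A match describes the letters and does not show a binding site.

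Kcnma1, the large-conductance calcium-activated channel, read 147, 94.7 and 192 with vehicle and 109, 56.4 and 129 with corticosterone on probe set 1372929_at. This was lower in each couple although the groups overlapped (log2 fold change −0.46 ± 0.16, limma adjusted p = 0.086). It passed after centring each array on its median, with quantile normalization and without the intensity trend. Its other probe sets were below the filter. Of these, 1370472_a_at had couples that moved both ways, and 1369334_at was at or under background on all 6 arrays. The calcium-activated small- and intermediate-conductance genes Kcnn1, Kcnn3 and Kcnn4 were below the filter, and their highest signals on any array were 53.1, 45.7 and 25.7.

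Among tandem pore domain channels, which carry the background potassium leak, Kcnk10 rose. Kcnk10 encodes a leak channel of the TREK family, opened by stretch, warmth and fatty acids. Probe set 1369232_at read 238, 221 and 235 with vehicle and 365, 353 and 366 with corticosterone. The groups lay far apart compared with the spread within them, with standard deviations of 9.22 and 7.43 around means of 231 and 361 (log2 fold change 0.59 ± 0.12, limma adjusted p = 0.0057). Its adjusted p was 0.050 without the couple in the model and 0.058 without couple 2. The second Kcnk10 probe set, 1369233_at, read 268, 213 and 206 and then 416, 322 and 236, higher in each couple with overlapping groups (0.43 ± 0.13, limma adjusted p = 0.046). That call was lost without the couple in the model (0.34), without couple 1 or 2 (0.24 and 0.25), with either other scaling (0.092 and 0.078), without the filter (0.11) and without the intensity trend (0.089). None of the related Kcnk2, Kcnk3 and Kcnk5 passed, with log2 fold changes of 0.05 (95% confidence interval −0.44 to 0.55), 0.18 (−0.31 to 0.67) and −0.12 (−0.43 to 0.19). Kcnk1, a weakly conducting member, was below the filter, with signals from 4.42 to 67.4 over the 6 arrays.

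Kcnd2 and Kcnip3, which encode partners in the A-type potassium channel of neuronal dendrites, both fell. Kcnd2 encodes a pore subunit of that fast-inactivating channel, and Kcnip3 a calcium-binding auxiliary protein that binds such pores and is also known as a transcriptional repressor, DREAM. Kcnd2 probe set 1379863_at read 609, 294 and 595 with vehicle and 351, 241 and 470 with corticosterone. Each couple went down, but the vehicle array of couple 2 was as low as the corticosterone arrays, so the groups overlapped (499 ± 178 to 354 ± 115, log2 fold change −0.44 ± 0.12, limma adjusted p = 0.030). Probe set 1387476_at read 397, 266 and 451 and then 234, 237 and 288, lower in each couple (−0.48 ± 0.13, limma adjusted p = 0.033). Kcnip3 probe set 1376225_at read 296, 144 and 291 with vehicle and 97.7, 66.8 and 232 with corticosterone, with overlapping groups (−0.84 ± 0.19, limma adjusted p = 0.013). Its within-couple differences were −1.36, −0.86 and −0.29 on the log2 scale, largest in couple 1 and smallest in couple 3. The other Kcnip3 probe set, 1387421_at, was at or under background on all 6 arrays and was not tested.

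These falls rested on the couple being in the model. Without it the adjusted p was 0.52 and 0.27 for the Kcnd2 probe sets and 0.32 for Kcnip3. Without couple 1 the adjusted p was 0.24, 0.18 and 0.094, and without couple 2 it was 0.063, 0.033 and 0.091. Without couple 3 the Kcnd2 values were 0.052 and 0.13, while Kcnip3 passed at 0.0056. Without the filter the limma values were 0.080, 0.093 and 0.067, and without the intensity trend 0.099, 0.095 and 0.076.

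The sister pore gene Kcnd3 did not pass. Its probe set 1378111_at read 1209.7, 944 and 1173 with vehicle and 1029.9, 972 and 1349 with corticosterone, with couples that moved both ways (log2 fold change 0.004, 95% confidence interval −0.20 to 0.21, limma adjusted p = 0.99). Its other tested probe set gave 0.09 (−0.13 to 0.31). Dpp6, a peptidase-like auxiliary subunit of the same channel, gave −0.25 (limma adjusted p = 0.24). The further Kv channel-interacting genes Kcnip1, Kcnip2 and Kcnip4 were below the filter. The difference in change between Kcnd2 and Kcnd3 was not tested.

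Among the delayed rectifier and other voltage-gated pores, 12 probe sets of 9 genes were tested and 2 passed, both of Kcnd2. Kcna2, a Shaker-type pore of axons, read 1330, 748 and 1755 with vehicle and 1059, 850 and 1476 with corticosterone on its brighter probe set (log2 fold change −0.13, 95% confidence interval −0.35 to 0.09, limma adjusted p = 0.43). Its dimmer probe set gave 0.22 (−0.22 to 0.65), and neither passed. Kcna3, a Shaker-type pore best known from lymphocytes and microglia, read 137, 67.2 and 104 and then 99.2, 18.3 and 71.3, lower in each couple (−0.60 ± 0.21, limma adjusted p = 0.077). It passed with each array centred on its median and with quantile normalization. Kcnc4, a fast-gating Shaw-type pore, read 55.6, 49.1 and 44.1 and then 96.1, 80.7 and 84.4, without overlap between the groups (0.57 ± 0.20, limma adjusted p = 0.079), and passed without the intensity trend. Its vehicle signals were all under the filter of 63.6, so it was tested only through its corticosterone signals. Kcnc1 and Kcnh2, a Shaw-type pore and the cardiac ERG channel, gave 0.21 (−0.13 to 0.55) and 0.24 (−0.12 to 0.60). The M-current gene Kcnq3 was below the filter, at 38.9 ± 12.2 and 74.9 ± 27.2 on its brighter probe set.

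Kcna1, the Shaker-type pore of axons whose mutations cause episodic ataxia in humans, was at or under background on all 3 vehicle arrays and above it on all 3 corticosterone arrays. Its single probe set read 3.57, 6.79 and 2.86 with vehicle and 146, 244 and 51.5 with corticosterone. The corticosterone signals were at least 5.38-fold higher, taken as their geometric mean over the background of 22.8. The mean over the 6 arrays was under the filter, so Kcna1 was not among the 44, and it was tested in the fit of all 31042 probe sets. There its log2 fold change was 2.25 ± 0.32 (limma adjusted p = 0.0076), with within-couple differences of 2.44, 2.95 and 1.35. In that unfiltered fit the call was lost without the couple in the model (0.055), without couple 1 (0.059) and without the intensity trend (0.12). Without couple 2 or 3 it passed at 0.047 and 0.0066.

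A pair of further genes showed the same pattern of background signals with vehicle only. Kcne4, a small auxiliary subunit that dampens voltage-gated potassium pores, read 18.1, 7.09 and 12.2 with vehicle and 86.4, 51.0 and 36.3 with corticosterone, at least 2.38-fold higher (1.04 ± 0.22, limma adjusted p = 0.035 without the filter). That call was lost without any 1 couple (0.18, 0.19 and 0.051), without the couple in the model (0.12) and without the intensity trend (0.12). Kcnv2, a silent subunit that modifies delayed rectifiers, read 8.51, 20.3 and 14.3 and then 34.0, 34.7 and 28.4, at least 1.42-fold higher, and did not pass (limma adjusted p = 0.19 without the filter). With the highest bacterial control signal, 32.6, as background, the Kcnv2 signal of 28.4 would not be above it. On single probe sets 4 of 177 channel probe sets crossed background in this direction, against 0.448% of all probe sets, and the fourth was a Kcne3 probe set whose gene had a brighter one, above background on 2 of the 3 vehicle arrays. In the opposite direction 0 of 177 crossed, against 0.129% of all probe sets.

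**Figure D3:**
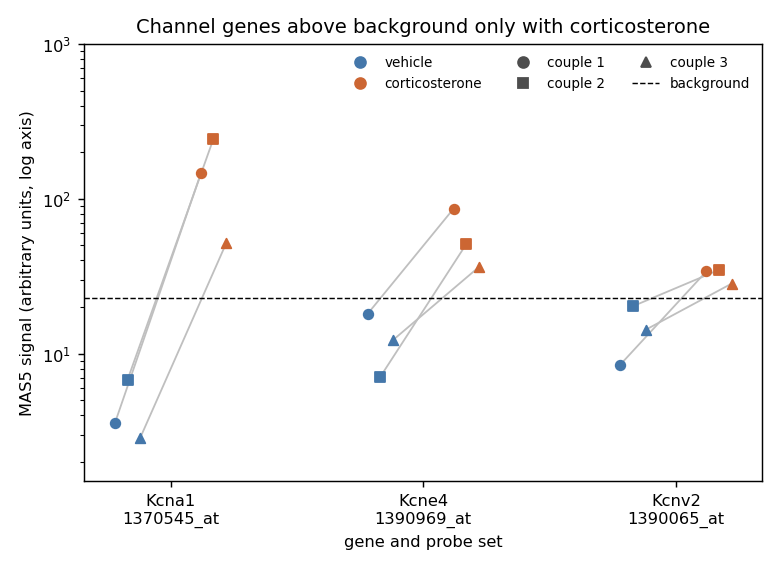
MAS5 signal (log axis) on each array for the 3 channel genes at or under background (dashed line, 22.8) on every vehicle array and above it on every corticosterone array. The corticosterone signals of Kcna1 span 51.5 to 244, and those of Kcnv2 lie close to the line at 28.4 to 34.7.

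In all, 133 channel probe sets lay below the filter. In the unfiltered fit 2 of them passed, those of Kcna1 and Kcne4, where 0.991% of all probe sets below the filter did. The groups did not overlap for 17 of the 133 with corticosterone higher and for 2 with corticosterone lower, against 9.89% and 2.92% of all probe sets below the filter. The median log2 fold change was 0.10 over these members and 0.08 over all probe sets below the filter, and centring the arrays on their medians made these −0.01 and −0.03, so their sign depends on the scaling. Without the filter 6 of the 177 passed in limma, 6 higher and 0 lower, against 6.0% of all probe sets, 3.99% higher and 2.01% lower. Before adjustment 30 of the 177 had a p under 0.05, against 20.6% of all probe sets.

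Among inward rectifiers, which pass potassium more easily into the cell than out and hold the resting potential, Kcnj14 fell. Kcnj14 encodes a classical, strongly rectifying channel. It read 193, 238 and 227 with vehicle and 139, 169 and 142 with corticosterone, with every corticosterone array below every vehicle array (219 ± 23.9 to 150 ± 16.5, log2 fold change −0.47 ± 0.14, limma adjusted p = 0.041). The call was lost without any 1 couple (0.093, 0.17 and 0.13), without the couple in the model (0.17) and without the filter (0.11). Kcnj11, the pore of the ATP-sensitive channel, did not pass on either tested probe set (0.19 and 0.23). Its regulatory partner Abcc8 read from 20.0 to 72.2 over the arrays and was not tested. The 3 probe sets of Kcnj14 and Kcnj11 were the only inward rectifier probe sets of 25 that passed the filter. Kcnj16, a glial rectifier subunit, was below it on both probe sets, the brighter of which read 29.3, 40.6 and 20.7 and then 53.1, 42.8 and 67.9 (0.50, limma adjusted p = 0.30 without the filter). Kcnj2, a further strong rectifier, read 14.0, 30.9 and 53.4 and then 48.0, 42.8 and 5.82. One Kcnj3 probe set, 1369740_at, for a G-protein-gated rectifier, read 19.4, 17.5 and 27.0 and then 49.3, 50.1 and 78.8 (0.81, limma adjusted p = 0.065 without the filter), while the other Kcnj3 probe sets gave 0.29 and −0.10; it was chosen for mention after its values were seen.

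The Kcnj14 window is printed whole as the one among the genes that changed whose transcript start is also the outer end of the gene in RefSeq. It covers the 250 bases before that start, at chr1:105437259-105437508 on the minus strand of GRCr8, read in the direction of the gene, and AGAACA was not in it on either strand, so nothing is in capitals.
Kcnj14 upstream window: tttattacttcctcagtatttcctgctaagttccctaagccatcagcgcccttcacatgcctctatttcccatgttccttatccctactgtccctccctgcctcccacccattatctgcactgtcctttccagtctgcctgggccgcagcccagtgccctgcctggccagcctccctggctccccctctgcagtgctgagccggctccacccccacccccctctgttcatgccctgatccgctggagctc
That these letters are missing says nothing about the receptor outside this window.

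Among auxiliary subunits of calcium channels, Cacna2d1 rose. Cacna2d1 encodes the extracellular subunit that carries calcium channels to the surface and binds gabapentin. It read 188, 299.6 and 183 with vehicle and 297, 475 and 297 with corticosterone. Couple 2 was brighter than the others on both arrays, so the groups overlapped, but the within-couple differences were 0.59, 0.62 and 0.62 on the log2 scale (0.61 ± 0.12, limma adjusted p = 0.0050). The adjusted p was 0.24 without the couple in the model and 0.063 without couple 2. The intracellular beta subunits Cacnb1 and Cacnb3 did not pass, at −0.004 (95% confidence interval −0.35 to 0.34) and 0.19 (−0.14 to 0.52). Of the gamma subunits, which include the AMPA receptor escorts, Cacng2 read 98.2, 131 and 116 and then 156, 159 and 142 (0.34, limma adjusted p = 0.18) and Cacng4 gave −0.29 (limma adjusted p = 0.19).

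None of the 4 tested calcium pore genes passed. Cacna1c, the L-type pore, read 156, 117 and 147 with vehicle and 148, 157 and 117 with corticosterone (log2 fold change 0.007, 95% confidence interval −0.37 to 0.38). Cacna1h, a low-voltage-activated pore, went from 223 ± 46.0 to 222 ± 36.0 (−0.002, −0.29 to 0.28). Cacna1a and Cacna1b, the pores of presynaptic calcium channels, gave 0.26 (−0.19 to 0.70) and 0.14 (−0.37 to 0.65). Changes of the size seen for Kcnk10 or Cacna2d1 lie within the intervals of Cacna1a and Cacna1b and outside those of Cacna1c and Cacna1h.

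Sodium channel genes were mostly dim. Of the 9 pore genes 3, Scn7a, Scn8a and Scn10a, had a signal above background on all 6 arrays, and 1 passed the filter. That was Scn7a, a sodium-level sensor of glia, which read 217, 89.7 and 229 with vehicle and 149, 112 and 182 with corticosterone (−0.17, 95% confidence interval −0.54 to 0.21, limma adjusted p = 0.57). The main pores of central neurons were below it: Scn1a read 30.4 ± 11.03 and 31.9 ± 0.18, Scn2a 24.9 ± 15.3 and 19.9 ± 5.56, Scn3a 28.1 ± 20.1 and 12.1 ± 12.4, and Scn8a 44.2 ± 4.69 and 30.3 ± 6.96. Scn8a was lower in each couple without overlap between the groups, and did not pass in the unfiltered fit (−0.31, limma adjusted p = 0.47). Of the beta subunits, which anchor and modulate the pore, Scn3b gave 0.07 (−0.27 to 0.41) and 0.28 (−0.13 to 0.69) on its tested probe sets and Scn4b 0.26 (−0.24 to 0.75), and none passed. Scn4b had a vehicle mean of 58.7, under the filter, and was tested only through its corticosterone signals.

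Among the remaining auxiliary subunits, Kcnmb4, the neuronal beta subunit of the calcium-activated channel Kcnma1, went from 271 ± 50.9 to 294 ± 64.1 (0.10, 95% confidence interval −0.17 to 0.37). The cytoplasmic beta subunits of Shaker-type channels, Kcnab1, Kcnab2 and Kcnab3, gave values from −0.02 to 0.19 over their 4 tested probe sets, and none passed.

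**Figure D4:**
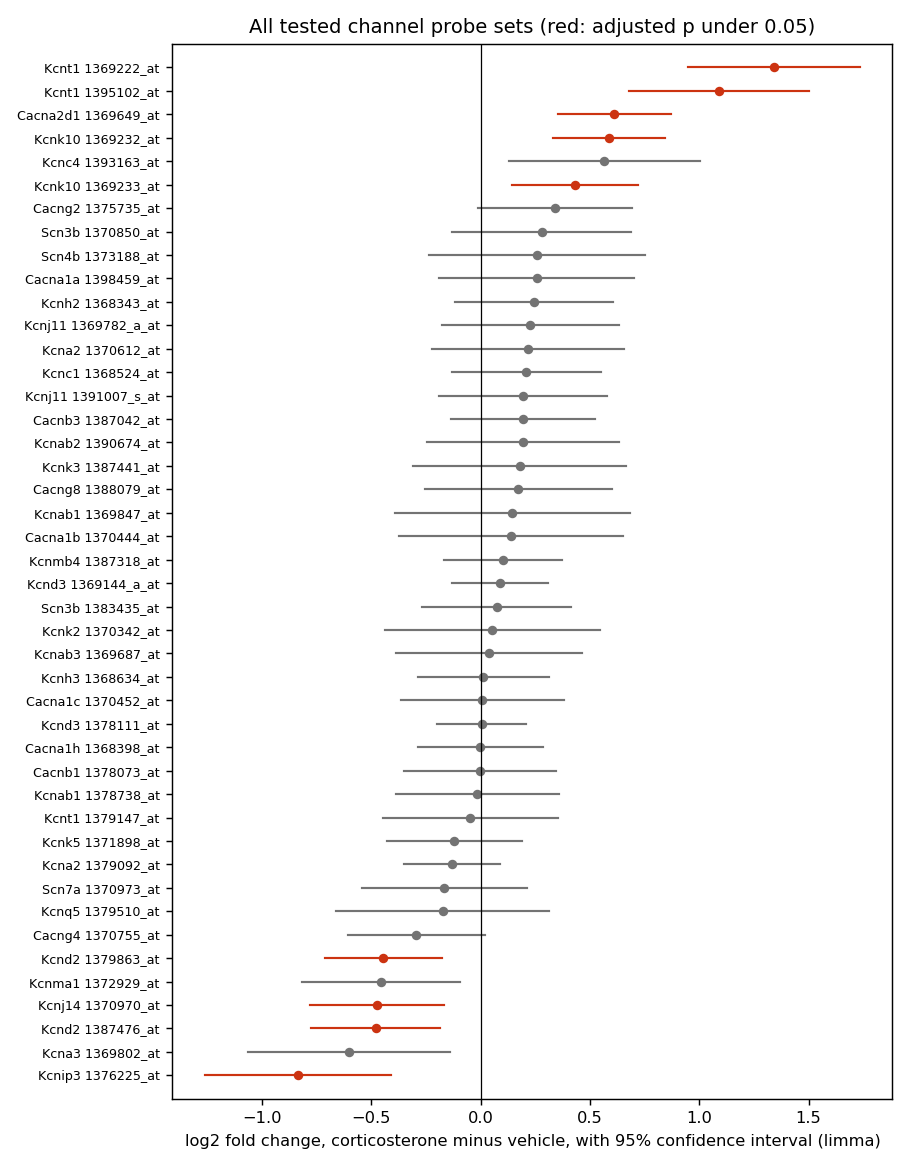
Log2 fold change (horizontal axis, corticosterone minus vehicle) with its 95% confidence interval from limma for each of the 44 tested channel probe sets (vertical axis), red where the adjusted p was under 0.05. The 9 red intervals all lie clear of 0, from −0.84 for Kcnip3 to 1.34 for Kcnt1, and of the grey ones those of Kcnma1, Kcna3 and Kcnc4 do too. Of the 44, 5 had a vehicle mean under the filter and were tested only through their corticosterone signals, among them Kcnc4 and the Kcnt1 probe set at 1.34.

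Genes that assemble with, anchor or regulate these channels, or that encode other voltage-gated channels, were taken as a list of 45, of which 41 were on the array and 21 were tested. Of the 21, 5 rose, 2 fell and 14 did not pass, with a median log2 fold change of 0.20 beside −0.004 over all tested probe sets, and beside the same background of 19.5% of genes. Cntnap2, the adhesion protein that clusters Shaker-type channels along myelinated axons, rose. It read 30.9, 38.3 and 24.7 with vehicle and 192, 189 and 87.8 with corticosterone, without overlap (1.57, limma adjusted p = 6.1e-04). Its vehicle mean of 31.3 was under the filter, so it was tested only through its corticosterone signals, and without the filter it passed too (limma adjusted p = 0.0089). It also passed without the couple in the model (0.025), where no other gene of the list did. Ank2, an ankyrin that ties channels to the cytoskeleton, rose from 5111 ± 754 to 7676 ± 1049.6 (0.58, limma adjusted p = 7.3e-04), and the scaffold gene Dlg3 by 0.61. The chloride-proton exchanger Clcn4 and the lysosomal channel Tpcn1 rose by 0.57 and 0.40. Fgf12 and Fgf13, intracellular members of the fibroblast growth factor family that bind the tail of sodium channels, fell by 0.40 and 0.42 on the log2 scale. Without the couple in the model the adjusted p of these 6 was 0.063 to 0.48. Without couple 2 Cntnap2 and Ank2 passed and the others did not (0.052 to 0.12), and without couple 1 Fgf12 and Tpcn1 did not (0.15 and 0.10). Without the intensity trend Ank2, Fgf12, Fgf13 and Tpcn1 did not pass (0.051 to 0.10), Fgf12 did not pass without the filter (0.055), and Tpcn1 did not with median centring (0.056).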

How the data were processed

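The deposited table holds 1 intensity value for each probe set and array, not on a log scale, computed by the authors with MAS5 per the submitters' processing notes. The labels do not state its version, settings or detection calls. Leaving aside 2% of probe sets at each end, every array had a mean of 500.0. After leaving out 57 control probe sets, signals were taken as log2(signal + 28.6), the pseudocount being the 25th percentile of all values. Probe sets in the lowest 40% by mean, below a signal of 63.6, were not tested. The other 18625 were fitted in limma 3.58.1 (R 4.3.3) with lmFit and eBayes (intensity trend) on treatment and couple. P-values are two-sided and were adjusted by the Benjamini-Hochberg method over every probe set tested, with a threshold of 0.05. The code was tested on simulated data. A lower bound on a fold is the geometric mean of the corticosterone signals over the background.

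The couples come from the series design text. As a check, each sample's deviation from its group mean was correlated with that of its partner, which gave 0.57, 0.52 and 0.35. Gene names come from the platform annotation, and all 177 Entrez identifiers were found in the GRCr8 gene table with 0 symbols updated. Where a gene had several probe sets, its brightest on average stood for it. Genes were named if they passed, if they were among the 12 highest in mean vehicle signal, if their tested probe sets disagreed and at least 1 passed, if they crossed background between groups, or if they stood on a list of well-known channels. Genes of the channel-associated list were named if they passed. Named outside that rule, after their values were seen, were Kcna3, Kcnc4, Kcne3, Kcnk3, Kcnk5, Kcnj11, Kcnj3, Scn4b, Scn7a, Scn10a, Dpp6, Abcc8, the Kcnab and Kcnn genes, the further Kcnip genes, and the genes under background. Alternatives were the couple left out of the model, other pseudocounts, filters and scalings, no intensity trend, and each couple left out. The members and lists were chosen with earlier results of these data known.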

Additional observations from a re-analysis of the deposited data

How the results depend on the processing

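Both pseudocounts of 1 and 100 left every count of channel calls unchanged at 9 probe sets and 6 genes. With no replicate block the counts fell to 2 probe sets (2 higher, 0 lower, both Kcnt1), 1 gene (1 higher, 0 lower), 1 channel-associated gene and 417 of all probe sets. Leaving out 1 couple at a time gave 3 to 6 channel probe sets (2 to 5 higher, 0 to 1 lower), 1 to 4 genes (1 to 3 higher, 0 to 1 lower), 2 to 7 associated genes and 1192 to 2807 of all probe sets; the counts of changed probe sets and genes were lowest without couple 2. Without the filter 5 genes were higher and 0 probe sets or genes lower, with 1862 of all probe sets called. The stricter filter, under which fewer channel probe sets were tested, left 5 probe sets (3 higher, 2 lower) and 3 genes (1 lower). Without an intensity trend 2 channel probe sets were lower, 4 associated genes passed and 1262 of all probe sets did. After centring each array on its median, which moved the median log2 fold change of all tested probe sets to −0.11, and after quantile normalization, 5 channel genes were lower. That centring made 30.4% of all called probe sets higher, against 59.3% in the authors' scaling. The causes were not tested. With a background set at the median control signal 137 channel probe sets were above it on all 6 arrays and 0 at or under it on all 6, and with a signal of 100 these were 20 and 134. At the highest control signal, 32.6, they were 51 and 48.

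Named probe sets that changed sign passed in none of these fits. Without each couple in turn the log2 fold change ran from −0.065 to 0.035 for Cacna1h, from −0.19 to 0.20 for Kcnk2, from −0.23 to 0.36 for Cacna1b, from −0.17 to 0.14 for Cacna1c, from −0.097 to 0.16 for Cacnb1, from −0.093 to 0.12 for Kcnd3, from −0.15 to 0.025 for the Kcnt1 probe set 1379147_at, from −0.14 to 0.19 for Scn3b and from −0.0019 to 0.33 for Cacnb3. With median centring Kcnk2 was at −0.053, Cacna1c at −0.10, Kcnd3 at −0.10, Scn3b at −0.033 and Kcnmb4 at −0.0054, and with quantile normalization Kcnk2 was at −0.061 and Cacna1c at −0.088. The unfiltered fits combined with another change, for Kcna1, Kcne4 and Kcnv2, and the alternatives for single associated genes were chosen after seeing the data. Of the 177 channel probe sets 133 were below the filter, which limits what the filtered fit covers, and 33 were at or under background on all 6 arrays.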
